A study of Mus musculus with 6 samples.

Results

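The clathrin, adaptor and endocytic coat genes are 41 of the 24421 genes in the table of read counts. They were chosen by gene symbol, as the genes of the clathrin chains, the AP-1, AP-2 and AP-3 adaptor subunits, the GGA adaptors, the proteins that start and assemble a coat, the actin linkers, and the BAR proteins, dynamins and synaptojanin. The members were picked with earlier results of these data known. All 41 had enough counts to be tested.

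A clathrin coat is a lattice of heavy and light chains that bends a membrane into a bud. Adaptors tie the lattice to cargo, with AP-2 at the plasma membrane and AP-1, AP-3 and the GGA proteins at the trans-Golgi network and endosomes. Dynamin cuts the neck of the bud, and synaptojanin helps to shed the coat afterwards. NHE6 is a sodium and proton exchanger of early and recycling endosomes, where cargo from clathrin-coated vesicles arrives.

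Cells without *Nhe6* were compared with wildtype cells for the RNA of this machinery. Primary cultures labelled as endothelial cells were grown from the cochlear wall of mice on postnatal days 10 to 12. By the study's methods, the stria vascularis, its vascularised epithelium, was taken out together with the spiral ligament. RNA of 3 *Nhe6*-knockout (KO) and 3 wildtype (WT) cultures was sequenced, with 1 poly(A)-enriched library per culture. The knockout is a targeted disruption in the mouse line, not limited to a cell type. The labels give C57BL/6N as the background of both groups while the study's methods name a C57BL/6J one. All cultures were untreated, each pooled at least 6 mice, and the cells were sorted and passaged before harvest, so the spread between cultures is not a spread between animals. In bulk RNA of this kind, fewer cells of a type and less RNA per cell cannot be told apart.

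Between 25587097 and 29126232 reads per library fell on genes. Normalized counts, scaled by the TMM factors of edgeR, are given below in the order of replicates 1, 2 and 3. On the first principal component, wildtype replicate 2 was at 106 and the remaining 5 between -28.5 and -6.52. *Nhe6*-knockout replicates 1 and 2 were far closer to each other than other replicates, with a chi-square per gene of 4.93 against 90.9 to 405 for the other pairs within a genotype.

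The labelled cell type was checked on its markers. Of 15 endothelial markers, *Cldn5* and *Robo4* were at 0 in all 6 libraries, *Pecam1* had at most 7.82 normalized counts, and 7 had a mean of at least 100. Too few counts to be tested were found for 6 of the 15. The cultures are named here by their label, which these markers did not bear out as a set. *Cdh5*, the endothelial cadherin, had 219.8, 232 and 179 normalized counts in the knockout and 2508, 5198 and 3468 in the wildtype and fell (log2 fold change -4.15, SE 0.31, edgeR adjusted p = 0.0133, and 1.41e-34 to 0.181 over the 13 alternatives). Of the 9 endothelial markers tested, 5 had a log2 fold change below 0, namely *Cdh5*, *Esam* (-3.54), *Flt1* (-1.79), *Cd34* (-1.17) and *Kdr* (-0.42). The 4 above 0 were *Eng* (0.76), *Emcn* (0.68), *Tek* (0.67) and *Egfl7* (0.09). *Cdh5* alone passed in edgeR and limma-voom, with *Flt1* in DESeq2 (adjusted p = 0.0104) and with *Tek* in edgeR without wildtype replicate 2. Without that culture *Esam* was at -1.21, *Flt1* at -1.04 and *Cd34* at -0.20. *Emcn* was then at 0.11, *Eng* at 0.33 and *Tek* at 1.68, and *Kdr* and *Egfl7* changed sign. The 15 endothelial markers summed to 16875 to 25933 normalized counts in *Nhe6*-knockout and 15983 to 23640.0 in wildtype cultures. *Emcn* (mean 12370 over the 6 cultures) and *Eng* (3759) had the highest means of them. All 9 fibroblast markers had a mean of at least 100 and summed to 228289 to 261696 against 178704 to 297170. Sums for the 10 mural markers were 22135 to 24416 against 16324 to 35254, highest in wildtype replicate 2. Macrophage, melanocyte and neural markers (8 each) summed to at most 1148, and the neuronal *Rbfox3* was at 0. The sums hide differences between single cultures. Wildtype replicate 2 had 27174 normalized counts of *Col1a1*, 16267 of *Acta2* and 409 of *Emcn*, where the other 5 cultures had at most 1227 and 1204 and at least 9896. Wildtype replicate 3 had 178 of *Dct* and 289.8 of *Tyrp1*, pigment cell genes that were at 5.16 or less in the other 5. The 10 cell cycle genes summed to 6829.8 to 12428 in *Nhe6*-knockout and 1953 to 3004 in wildtype cultures; 9 of them were higher without overlap, where 10.3% of all genes were. Of these 10 genes, 0 passed the adjusted threshold in edgeR, 0 in limma-voom, 9 in DESeq2 and 7 in edgeR without wildtype replicate 2. In the same order, 0.0668%, 0.0742%, 4.69% and 2.88% of all genes passed. The part of any of these in the results on the coat genes was not tested. Whether the counting used strand is not given in the sources used here, and 16 coat genes share exonic bases with a gene on the other strand, of which *Ap1g1*, *Ap2a1*, *Ap3m1*, *Itsn2* and *Hip1r* share at least 10%.

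The coat genes were abundant. Levels per length, which allow genes to be compared, were taken as TMM-scaled RPKM, reads divided by exon length and by library size. The median level of the 41 genes was 13.8, against 5.82 over the 13382 genes tested that had a length. There were 24 coat genes over 10 and 4 under 1. *Cltc*, the clathrin heavy chain, was highest at 120.5 and stood at percentile 98.1 of the genes tested. *Clta*, the more abundant light chain, followed at 92.2, and the AP-2 subunits *Ap2s1* and *Ap2m1* came next at 39.3 and 38.9. *Dnm3* (0.106) and *Fcho1* (0.145), a dynamin best known from brain and a coat-initiating protein best known from lymphoid cells, were lowest, with *Ap1g2* (0.788) and *Amph* (0.800) above them. In each of these 4 cases a relative gene carried the higher level in the same cultures, as in the plot of levels by culture.

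**Figure D1:**
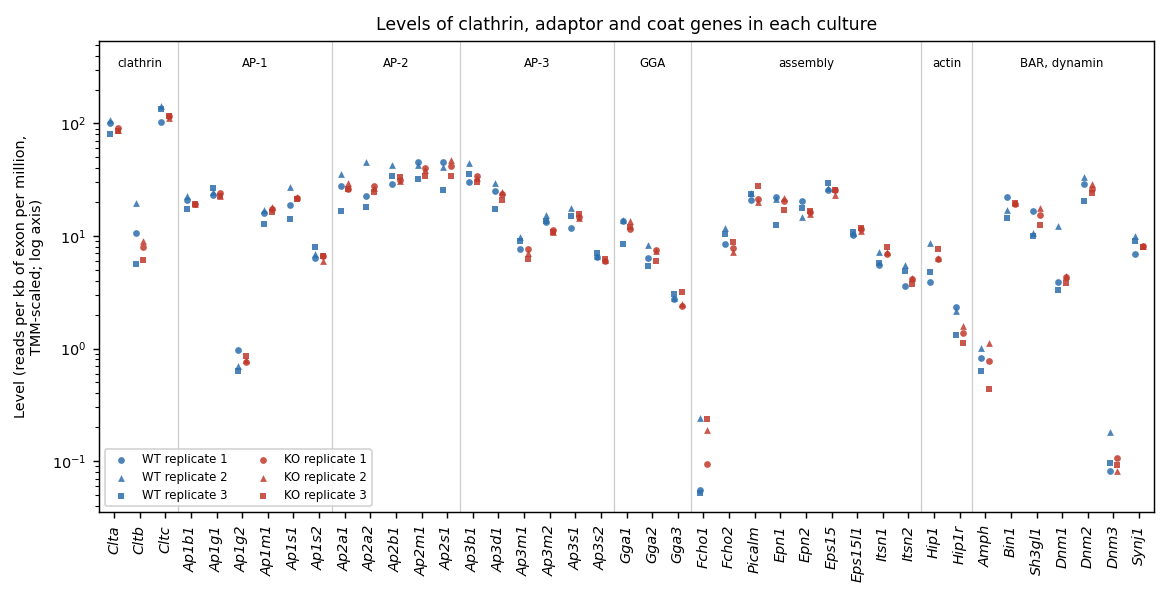
Levels of the 41 clathrin, adaptor and coat genes in TMM-scaled RPKM (log axis), with each point 1 culture, wildtype in blue and *Nhe6*-knockout in red. Within a gene the 6 cultures lie close together beside the range between genes, from a mean of 0.106 for *Dnm3* to 120.5 for *Cltc*.

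The promoters of the clathrin chains and the dynamins are shown because these families hold the highest and lowest levels of the set. The RefSeq promoter table (GRCm38.p6, 250 bases before to 50 after each start) held 42 windows for 37 of the 41 genes. *Ap1m1*, *Ap3m2*, *Ap3s1* and *Bin1* had none. Each stretch below comes from the most upstream window of its gene, and which start the cells used was not measured. It is the last 100 bases before the RefSeq or GENCODE start, whichever lies further upstream. Stretches are read 5′ to 3′ on the gene's strand, with GC boxes (GGGCGG on either strand) in capitals. In order, the stretches lie at chr11:86757568-86757667 (minus strand), chr4:44004343-44004442 (plus), chr13:54611374-54611473 (minus), chr9:21424808-21424907 (plus), chr2:32353339-32353438 (minus) and chr1:162478035-162478134 (minus).
Cltc: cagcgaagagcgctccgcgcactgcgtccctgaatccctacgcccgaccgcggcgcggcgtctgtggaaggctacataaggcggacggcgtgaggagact
Clta: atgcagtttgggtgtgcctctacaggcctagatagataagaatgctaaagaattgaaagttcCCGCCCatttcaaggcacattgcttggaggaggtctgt
Cltb: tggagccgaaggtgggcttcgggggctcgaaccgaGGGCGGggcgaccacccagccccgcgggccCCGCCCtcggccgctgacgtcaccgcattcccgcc
Dnm2: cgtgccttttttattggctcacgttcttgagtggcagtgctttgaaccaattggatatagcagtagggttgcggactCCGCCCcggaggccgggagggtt
Dnm1: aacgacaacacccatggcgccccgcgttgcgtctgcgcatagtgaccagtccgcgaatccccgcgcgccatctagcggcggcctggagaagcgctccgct
Dnm3: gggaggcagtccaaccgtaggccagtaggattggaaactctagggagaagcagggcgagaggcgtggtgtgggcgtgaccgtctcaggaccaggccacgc

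These 100 bases held 2 GC boxes for *Cltb*, 1 each for *Clta* and *Dnm2*, and 0 for *Cltc*, *Dnm1* and *Dnm3*. Their GC content ran from 46.0% in *Clta* to 78.0% in *Cltb*. *Cltc* and *Dnm3*, the highest and lowest of the 41 genes by level, thus both held 0 boxes in this stretch. Over the 42 windows of 300 bases, a GC box was present in 71.4%, against 62.3% of the 13110 windows of genes tested and 35.7% of all 32851 windows. The median number of CpG was 23 in the coat genes, 20 in windows of genes tested and 7 in all windows. The E box CACGTG was present in 16.7% of coat gene windows, 9.67% of windows of genes tested and 7.15% of all windows. For the ETS motif CCGGAAG the shares were 26.2%, 16.4% and 8.86%, and for the cAMP response element TGACGTCA, which has ACGT in common with the E box, 4.76%, 3.03% and 1.79%. The CCAAT box was found in 33.3%, 37.5% and 37.4%, and the TATA box TATAAA in 4.76%, 7.24% and 13.6%. Both strands were searched, and a match is only a run of letters in a window, with no measurement of its use.

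Between the genotypes, 0 of the 41 coat genes passed an adjusted p of 0.05 in edgeR's quasi-likelihood test, where 0.0668% of all 13479 genes tested did (9 genes). The same count was 0 in DESeq2's Wald test, with 4.69% of all genes, and 0 in limma-voom, with 0.0742%. It was 0 also with no filter beyond 1 count (0.118% of all genes), with at least 10 counts in every library (0.169%, 40 coat genes tested), with the replicate number as a block (0.0148%), with *Nhe6*-knockout replicates 1 and 2 summed (0.00731%) and without wildtype replicate 2 (2.88%). At an unadjusted p under 0.05 there was 1 coat gene, *Ap3m2*, in each of the 3 tests. The same threshold took in 11.8% of all genes in edgeR, 13.8% in DESeq2 and 11.8% in limma-voom. The median log2 fold change was -0.09 over the coat genes and -0.02 over all genes tested. Of the 41, 25 had a value below 0 and 16 above, where 51.9% of all genes were below 0, and all lay between -0.64 (*Dnm1*) and 0.57 (*Fcho1*).

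The intervals show how large a difference these 6 libraries leave room for, if the cultures are independent. They count *Nhe6*-knockout replicates 1 and 2, which were close to each other over all genes, as separate cultures. The intervals may therefore be too narrow, and the counts below were not made with these replicates summed. For 35 of the 41 coat genes (85.4%) the 95% interval lay within 2-fold in either direction, against 60.1% of all genes tested. It lay within 1.5-fold for 22 coat genes, against 29.3% of all genes. The fitted value itself was under 1.5-fold for 39 of the 41, all but *Cltb* and *Dnm1*, and for 80.7% of all genes. The exceptions to the 2-fold bound were *Cltb*, *Fcho1*, *Hip1r*, *Amph*, *Dnm1* and *Dnm3*. The coat genes were also counted more deeply, with a median of 1863 normalized counts against 725 over all genes. A mean of at least 1000 was found for 32 of the 41, and for 5606 of the 13479 genes tested.

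**Figure D2:**
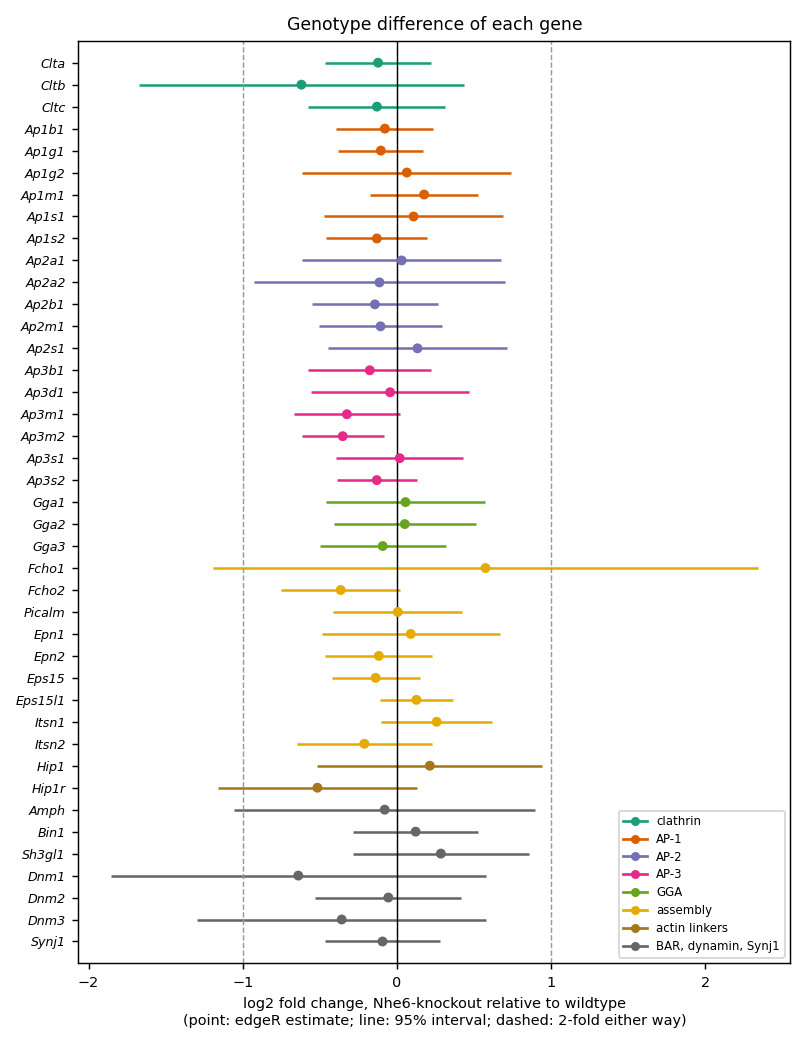
Fitted log2 fold change of each coat gene in *Nhe6*-knockout relative to wildtype cultures (point) with its 95% interval (line), coloured by role, with dashed lines at 2-fold in either direction. Points run from -0.64 for *Dnm1* to 0.57 for *Fcho1*, and the interval of *Ap3m2* lies wholly below 0.

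Groups did not overlap for 4 coat genes, where 19.9% of all genes tested did not. *Ap3m2*, *Ap3s2* and *Eps15* were lower in every *Nhe6*-knockout library, and *Eps15l1* was higher. By direction, 9.57% of all genes were lower and 10.3% higher without overlap. Wildtype replicate 2 was the highest library for 23 coat genes (56.1%) against 26.8% of all genes. Wildtype replicate 3 was the lowest for 19 (46.3%) against 23.1%. Wildtype cultures had the larger SD of log2 counts for 37 of the 41, where 82.1% of all genes did. Without wildtype replicate 2, the median log2 fold change of the coat genes was 0.03, 6 had an unadjusted p under 0.05 (*Ap1s1*, *Ap2a2*, *Ap3m2*, *Fcho1*, *Hip1* and *Itsn1*, with 19.5% of all genes), 0 passed the adjusted threshold, and the smallest adjusted p was 0.105. Without wildtype replicate 1 there were 5 such genes (*Ap3m1*, *Ap3m2*, *Fcho2*, *Itsn2* and *Sh3gl1*, with 14.7% of all genes), and without wildtype replicate 3 there were 3 (*Ap3m2*, *Cltb* and *Hip1r*, with 14%). Without *Nhe6*-knockout replicate 1 or 2 there were 0, and without replicate 3 there was *Ap3m2* alone.

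**Figure D3:**
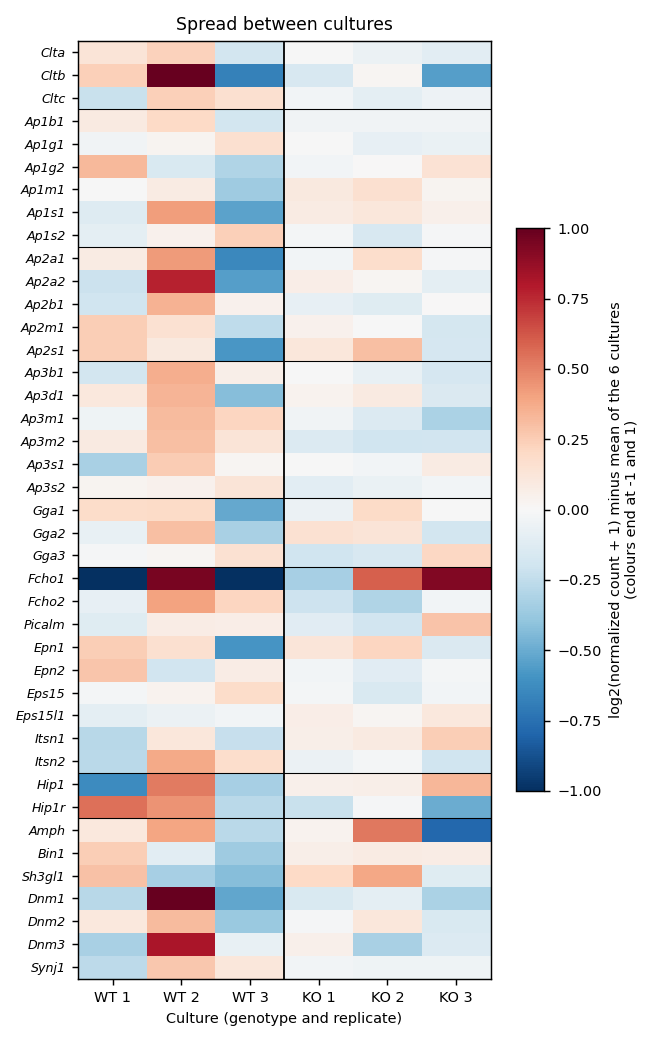
Log2 of the normalized count plus 1 for each coat gene in each culture, relative to the mean of the 6 cultures, red above and blue below, with colours ending at -1 and 1. Wildtype replicate 2 is the reddest column, highest for 23 of the 41 genes, and wildtype replicate 3 is lowest for 19.

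The 3 clathrin chains all had fitted values below 0, where 51.9% of all genes did, and none passed the test. All 3 were highest in wildtype replicate 2, and without that culture *Cltc* and *Clta* were both at -0.04. The heavy chain *Cltc* (chr11:86694351-86757565), which forms the legs of the triskelion, had 27538, 26219 and 27053 normalized counts in the knockout and 24046, 33134 and 31283 in the wildtype. The knockout cultures lay between wildtype replicate 1 and the other 2 wildtype cultures. For *Cltc* the fitted log2 fold change was -0.13 (95% interval -0.57 to 0.31, edgeR adjusted p = 0.842). *Clta* (chr4:44004452-44032846) ran from 4003 to 5329.6 normalized counts, both ends in wildtype cultures, with a log2 fold change of -0.12. *Cltb* (chr13:54592401-54611344), the light chain known to be higher in cells with regulated secretion, had 1079.7, 1222 and 819 against 1420.3, 2623 and 754. Wildtype replicate 2 was the highest and wildtype replicate 3 the lowest of the 6, so the groups overlapped. The log2 fold change of *Cltb* was -0.62 (SE 0.44, adjusted p = 0.650), and it was -0.07 without wildtype replicate 2.

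Light chains regulate assembly of the heavy chain, and the ratio of both had about the same mean in the genotypes. Per length, *Cltc* over the sum of *Clta* and *Cltb* was 1.20 ± 0.0590 (SD, n = 3) in knockout cultures and 1.20 ± 0.319 in the wildtype. Wildtype cultures spanned the whole range, from 0.926 to 1.55. *Cltb* made up 6.51% to 9.55% of light chain RNA per length in 5 cultures and 15.4% in wildtype replicate 2.

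The 6 AP-1 subunit genes had a median log2 fold change of -0.01, with 3 below 0 and 3 above. *Ap1g1* (chr8:109778554-109864204), the gamma subunit and the most abundant of them per length, had 5050.03, 4794 and 4828 normalized counts in the knockout and 4937, 5175 and 5669 in the wildtype. Knockout replicate 1 lay among the wildtype cultures. *Ap1g1* had a fitted value of -0.11 (95% interval -0.38 to 0.17). *Ap1m1* (chr8:72240018-72257385), the mu subunit that reads tyrosine sorting signals, had 1516, 1585 and 1443 against 1412, 1501 and 1111. Wildtype replicate 3 was the lowest of the 6 cultures and knockout replicate 3 lay among the wildtype values, and the log2 fold change was 0.18 (SE 0.15, adjusted p = 0.704). The beta subunit *Ap1b1* and the sigma subunits *Ap1s1* and *Ap1s2* had log2 fold changes of -0.08, 0.11 and -0.13. *Ap1g2*, the second gamma subunit, was at 72.7 to 112 normalized counts, with both ends in wildtype cultures.

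AP-2 is the adaptor of the plasma membrane, and its 5 genes had a median log2 fold change of -0.11, with 3 below 0 and 2 above. *Ap2s1* (chr7:16738410-16749294), the small sigma subunit, had 1687, 1924 and 1388 normalized counts in the knockout and 1847, 1668 and 1045 in the wildtype. The groups overlapped, and the log2 fold change was 0.13 (95% interval -0.45 to 0.72, edgeR adjusted p = 0.880). The alpha subunits that bind the membrane lipid, *Ap2a1* and *Ap2a2*, gave 0.03 and -0.11. *Ap2a2* reached 7024 normalized counts in wildtype replicate 2 and lay between 2819 and 4329 in the other 5 cultures. The beta subunit *Ap2b1*, which binds clathrin, and the mu subunit *Ap2m1*, which binds cargo, were at -0.14 and -0.11. All 5 intervals lay within 2-fold.

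AP-3 carries cargo from endosomes to lysosomes and related organelles. Of its 6 genes, 5 had fitted values below 0, at a median log2 fold change of -0.15, and 2 were lower without overlap. Over all genes tested, 51.9% were below 0 and 9.57% lower without overlap, and AP-3 was not tested against them. *Ap3m2* (chr8:22787354-22805622), a mu subunit best known from neurons, had 1409.8, 1352 and 1359 normalized counts in the knockout and 1652, 1911 and 1697 in the wildtype. Every knockout culture was below every wildtype culture, and the spread among knockout cultures was smaller than the gap to wildtype replicate 1. The log2 fold change was -0.35 (SE 0.11, 95% interval -0.62 to -0.09), with an unadjusted p of 0.0172 and an adjusted p of 0.287 in edgeR's test. It had the smallest p of the 41 and did not pass after adjustment over all genes. Knockout replicates 1 and 2 were close to each other over all genes. With these 2 summed, *Ap3m2* had an unadjusted p of 0.0618 and an adjusted p of 0.835 in edgeR's test. The adjusted p of *Ap3m2* ran from 0.1298 to 0.882 over 13 alternative fits, and its log2 fold change from -0.40 to -0.29.

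Its paralog *Ap3m1* (chr14:21031442-21052508), the ubiquitous mu subunit, had 1479, 1378 and 1218 against 1469, 1880.4 and 1755. Knockout replicate 1 was just above wildtype replicate 1, so the groups overlapped. The log2 fold change was -0.33 (SE 0.14, edgeR adjusted p = 0.444). Exons of *Ap3m1* share 29.8% of their bases with exons of *Vcl* on the other strand. *Ap3s2* (chr7:79875325-79920649), a sigma subunit, had 969, 995 and 1024 against 1063, 1072 and 1139, without overlap but with a log2 fold change of only -0.13 (adjusted p = 0.700). The other sigma gene, *Ap3s1*, was at 0.02. *Ap3b1* (chr13:94358960-94566317), the beta subunit and the most abundant AP-3 gene per length, had 4284, 4074 and 3819.9 against 3767, 5528 and 4473. Wildtype replicates 1 and 2 were the lowest and highest of the 6, and the log2 fold change was -0.18 (95% interval -0.58 to 0.22). The delta subunit *Ap3d1* was at -0.05.

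GGA proteins are monomeric adaptors of the trans-Golgi network that collect mannose phosphate receptors. *Gga1* (chr15:78877190-78894585) had 1195, 1422 and 1243 normalized counts in the knockout and 1418, 1425 and 874 in the wildtype. Wildtype replicate 3 was below the other 5 cultures, and the log2 fold change was 0.05 (95% interval -0.46 to 0.57). *Gga2* and *Gga3* were at 0.05 and -0.09. *Gga1* was the most abundant of the 3 per length in every culture, at 49.8% to 59.9% of their sum.

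The 9 proteins that start and assemble the coat had a median log2 fold change of 0.00, with 4 below 0 and 5 above. *Fcho2* (chr13:98723403-98815449), an F-BAR protein that marks nascent pits, had 2682, 2503 and 3035 normalized counts in the knockout and 2918, 4084 and 3590.2 in the wildtype. Knockout replicate 3 was above wildtype replicate 1, and the log2 fold change was -0.37 (SE 0.16, unadjusted p = 0.0601 and adjusted p = 0.444 in edgeR's test). Its relative *Fcho1* was counted at 6.42 to 29.9 normalized counts, with both ends in wildtype cultures, and its interval ran from -1.19 to 2.34.

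*Eps15* (chr4:109280268-109387817), a scaffold that binds AP-2, was the most abundant of these proteins per length. It had 4881, 4449 and 4855 against 4892, 5090.3 and 5636, with every knockout culture below every wildtype culture, knockout replicate 1 only just so, and with overlap when DESeq2 size factors were used. Its log2 fold change was -0.14 (SE 0.12, adjusted p = 0.716). The related scaffold *Eps15l1* (chr8:72340999-72421460) had 2142, 2071 and 2207 against 1909, 1966 and 2009.5. All 3 knockout cultures were above the wildtype cultures, and the log2 fold change was 0.13 (SE 0.10, adjusted p = 0.682).

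*Itsn1* (chr16:91729281-91920597), an intersectin that links the coat to dynamin and actin, had 4511, 4628 and 5149 normalized counts in the knockout and 3575, 4693 and 3692 in the wildtype. Wildtype replicate 2 lay among the knockout cultures, and the log2 fold change was 0.26 (SE 0.15, edgeR adjusted p = 0.564). *Itsn2* was at -0.21. The membrane-bending epsins *Epn1* and *Epn2* were at 0.09 and -0.12, and *Picalm*, which sets the size of coated vesicles, at 0.00.

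The actin linkers *Hip1* and *Hip1r* tie the coat to the cytoskeleton and had fitted values of opposite sign. *Hip1r* (chr5:123973628-124005558) had 277, 320.5 and 228 normalized counts in the knockout and 472, 441 and 267 in the wildtype. Wildtype replicate 3 lay among the knockout cultures, and the log2 fold change was -0.52 (SE 0.27, edgeR adjusted p = 0.515). *Hip1* (chr5:135406531-135545120) had 2237, 2254 and 2720.4 against 1397, 3106 and 1721. Wildtype replicate 2 was the highest and the other 2 wildtype cultures were the lowest of the 6. *Hip1* had a fitted value of 0.21 with all cultures (edgeR adjusted p = 0.843) and 0.62 without wildtype replicate 2 (edgeR adjusted p = 0.105). The latter p was the smallest of the 13 alternatives, which ran from 0.105 to 0.999.

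Dynamins sever the coated bud. *Dnm2* (chr9:21424908-21507759), the ubiquitous form, had 3878, 4239.9 and 3519.9 normalized counts in the knockout and 4217, 4868 and 3019 in the wildtype, a log2 fold change of -0.06 (95% interval -0.53 to 0.42). It was the most abundant of the 7 BAR, dynamin and synaptojanin genes per length and made up 72.6% to 87.8% of dynamin RNA. *Dnm1* (chr2:32308471-32353338), the neuronal form, had 621, 643 and 554 against 568, 1785 and 480.2. Wildtype replicate 2 was far above the other 5 cultures, which lay between 480.2 and 643. *Dnm1* had a fitted value of -0.64 (SE 0.50, edgeR adjusted p = 0.686) with all cultures and 0.20 without wildtype replicate 2. *Dnm1* was 27.0% of dynamin RNA per length in that culture and 12.0% to 13.9% in the other 5. *Dnm3* was 0.244% to 0.404%.

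Of the BAR proteins, which sense and bend membrane, *Sh3gl1* (chr17:56016750-56036635), an endophilin, had 2137, 2439 and 1714 normalized counts in the knockout and 2292, 1482 and 1391 in the wildtype. Wildtype replicate 1 lay among the knockout cultures, and the log2 fold change was 0.28 (SE 0.24, edgeR adjusted p = 0.707). The amphiphysins *Bin1* and *Amph* were at 0.12 and -0.08, and the phosphatase *Synj1* at -0.09.

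Related genes can trade places without a change in their sum, so 15 pairs of paralogs were compared as log2 ratios of counts within each library. For 2 pairs the genotypes did not overlap, and both had p = 0.1 in an exact two-sided permutation test, the smallest that 3 against 3 cultures allow, so no pair could reach 0.05 (adjusted p = 0.75 over the 15 pairs). The log2 ratio of *Itsn2* to *Itsn1* was -1.55, -1.55 and -1.89 in knockout and -1.42, -1.17 and -1.03 in the wildtype. It was lower in every knockout culture, with a difference of means of -0.45, which ran from -0.56 to -0.34 when each culture was left out in turn. The log2 ratio of *Eps15l1* to *Eps15* was -1.19, -1.10 and -1.14 against -1.36, -1.37 and -1.49. It was higher in every knockout culture, by 0.26, and by 0.22 to 0.29 when each culture was left out. Per length, *Itsn2* made up 35.3% ± 3.02 (SD, n = 3) of both intersectins in *Nhe6*-knockout and 42.8% ± 3.39 in wildtype cultures. *Eps15l1* made up 31.8% ± 0.640 of its pair in knockout cultures and 28.0% ± 0.989 in the wildtype.

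The other 13 pairs overlapped. The smallest differences of mean log2 ratio were -0.02 for *Gga2* to *Gga1* and -0.03 for *Ap3m2* to *Ap3m1*, the mu subunits of AP-3 that both had fitted values below 0. The ratio of *Hip1r* to *Hip1* was -3.01, -2.81 and -3.57 in *Nhe6*-knockout and -1.56, -2.81 and -2.68 in the wildtype, with overlap at wildtype replicate 2. *Fcho2* to *Fcho1* had the widest difference, -1.18, and rests on the few reads of *Fcho1*.

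**Figure D4:**
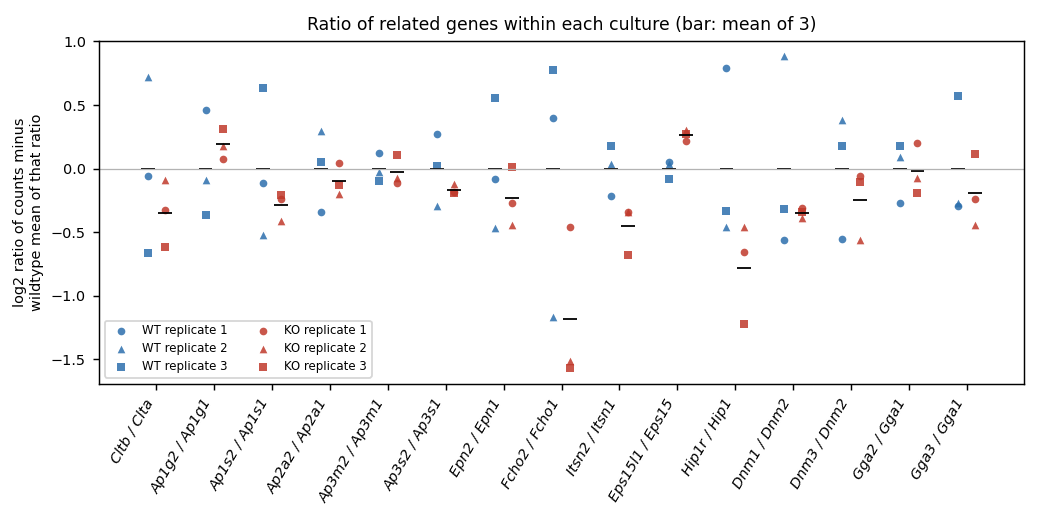
Log2 ratio of counts for 15 pairs of related coat genes, each set to its wildtype mean, with 1 point per culture, wildtype in blue, *Nhe6*-knockout in red, and the mean of 3 as a bar. Only *Itsn2* to *Itsn1* (difference of means -0.45) and *Eps15l1* to *Eps15* (0.26) separate all knockout from all wildtype cultures.

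Other genes of clathrin-mediated traffic were taken from a list of 67, namely further adaptor subunits, cargo adaptors, other assembly proteins, kinases and uncoating factors, phosphoinositide enzymes, and curvature and actin proteins. Of these, 65 were tested, *Bin2* and *Pacsin1* being too low. In edgeR's test 0 passed an adjusted p of 0.05 and 5 had an unadjusted p under 0.05, where 11.8% of all genes did. The median log2 fold change was -0.06, with 39 below 0 (51.9% of all genes) and 26 above, and 7 were lower and 4 higher without overlap, where 9.57% and 10.3% of all genes were. Of the 11 cargo adaptors, 9 had fitted values below 0, with a median of -0.23.

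*Ston2*, a stonin that sorts synaptotagmin through AP-2, had 30.8, 40.9 and 22.7 normalized counts in the knockout and 94.8, 104 and 164 in the wildtype. Every knockout culture was below every wildtype culture. The log2 fold change was -1.94 (95% interval -2.86 to -1.02), with an adjusted p of 0.114 in edgeR and 4.56e-04 in DESeq2, and a range of 4.56e-04 to 0.539 over 13 alternatives. It was the only accessory gene of the 65 to pass in DESeq2's test, where 4.69% of all genes did.

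*Synrg*, a synergin that binds AP-1, had 1189, 1099.9 and 863 against 1435, 1473 and 1388 (log2 fold change -0.45, edgeR adjusted p = 0.320). *Snap91*, the neuronal relative of *Picalm*, had 416, 354 and 449 against 336, 173 and 134 (log2 fold change 0.92, adjusted p = 0.394). Neither gene overlapped between genotypes, *Synrg* being lower and *Snap91* higher in knockout cultures, and neither passed after adjustment. *Ap3b2*, the neuronal beta subunit of AP-3, was counted at 5.31 to 13.0 against 16.0 to 34.0 normalized counts (log2 fold change -1.40, adjusted p = 0.402). *Ap4b1*, *Aftph* and *Tollip* had log2 fold changes of 0.42, -0.28 and -0.26, and 82.4% of the exonic bases of *Ap4b1* are shared with a gene on the same strand.

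**Figure D5:**
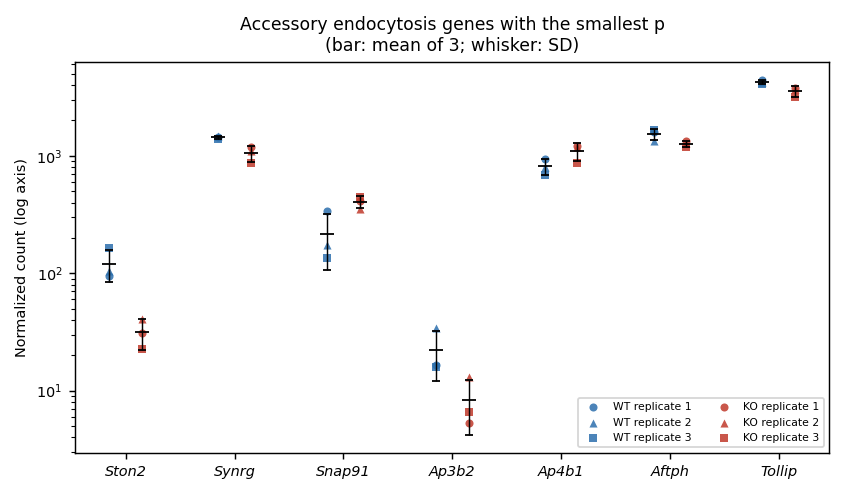
Normalized counts (log axis) of 7 accessory endocytosis genes from the 8 with the smallest p, with 1 point per culture, wildtype in blue, *Nhe6*-knockout in red, and the mean and SD of 3 cultures as bar and whisker. *Ston2* has the widest gap, with 22.7 to 40.9 in knockout and 94.8 to 164 in wildtype cultures.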

How the data were processed

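The authors deposited 1 table of raw counts, the number of reads per gene symbol in each of 6 libraries, without normalization. The submitters' processing notes name bcl2fastq 2.20.0.422, STAR 2.7.7a, HTSeq 0.13.5, DESeq2 1.26.0 and mm10 (the same build as GRCm38); the strand setting of the counting is not given in the sources used here. The 5 summary lines of the table (22.2% of reads) were left out. Columns were matched to groups by genotype and replicate number in the labels.

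Of 24421 genes, 17769 had a count, and 13479 passed filterByExpr (minimum count 10). Both genotypes entered 1 quasi-likelihood fit (edgeR 4.0.16 on R 4.3.3, TMM, genotype only, Benjamini-Hochberg over all genes tested, threshold 0.05). A standard error is the log2 fold change divided by the square root of F. Levels per length used exon unions of GENCODE M21 (GRCm38). Paralog ratios had 0.5 added to each count. Gene positions are those of GENCODE M21, and promoter sequences are from RefSeq.

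Values in all 6 libraries are given for the 12 coat genes with the smallest p and the most abundant of each role, and 8 accessory genes could be named, of which 1 is not reported here, nor is the check of the targeted gene. The members and lists were chosen with earlier results of these data known. P-values of the fits set the genotype difference against the spread between cultures. The main fit counts *Nhe6*-knockout replicates 1 and 2 as separate cultures. Alternatives were DESeq2 size factors, other filters, DESeq2 1.42.0, limma 3.58.1 voom, a replicate block, leaving out each culture, other lengths and pseudocounts, and, chosen after seeing the data, the sum of *Nhe6*-knockout replicates 1 and 2. The fit was also run on simulated counts with the mean levels and library sizes of these data, drawn independently for each library. That simulation held no outlying culture and no pair as close as *Nhe6*-knockout replicates 1 and 2, so it does not test the fit under those features.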

Additional observations from a re-analysis of the deposited data

How the results depend on the processing

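The count of coat genes with an adjusted p under 0.05 was 0 in edgeR and in all 13 alternative fits. Over all genes tested it was 9, and it moved to 21 with no filter beyond 1 count, 21 with at least 10 counts in every library, 627 in DESeq2's Wald test and 1 with *Nhe6*-knockout replicates 1 and 2 summed. Leaving out each culture in turn gave 0 (without *Nhe6*-knockout replicate 3) to 395 genes (without wildtype replicate 2). Of the accessory genes, 1 (*Ston2*) passed in DESeq2, where 4.69% of all genes did. Leaving out each culture gave 0 to 1. The 1 was *Pip5k1b* without wildtype replicate 2 (adjusted p = 0.0449 in edgeR, with 2.88% of all genes passing), a gene named after its values were seen. The cause of these changes was not tested.

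Whether replicate numbers pair the cultures is not known. Same-numbered cultures correlated at 0.207, -0.189 and 0.111 in their deviations from the group means. With 3 cultures per genotype, and *Nhe6*-knockout replicates 1 and 2 so close, these values cannot decide whether the cultures were prepared in pairs. With the replicate number as a block, 2 genes of all tested and 0 coat genes passed, and *Nhe6*-knockout replicate 2 correlated best with wildtype replicate 1.

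Of 247 alternative values of named coat genes 240 kept their sign, and 5 genes reversed when 1 culture was left out. Their log2 fold changes ran from -0.96 to 0.20 for *Dnm1*, -0.084 to 0.29 for *Ap2s1*, -0.15 to 0.16 for *Gga1*, -0.011 to 0.62 for *Hip1* and -0.23 to 0.096 for *Dnm2*. The differences of paralog log2 ratios that reversed ran from -0.68 to 0.016 for *Cltb* to *Clta*, -0.55 to 0.030 for *Ap1s2* to *Ap1s1*, -0.27 to 0.052 for *Ap2a2* to *Ap2a1*, -0.096 to 0.033 for *Ap3m2* to *Ap3m1*, -0.47 to 0.044 for *Epn2* to *Epn1*, -0.63 to 0.095 for *Dnm1* to *Dnm2*, -0.16 to 0.067 for *Gga2* to *Gga1* and -0.34 to 0.094 for *Gga3* to *Gga1*. Coat genes without overlap numbered 4 to 16 when each culture was left out, highest without wildtype replicate 1, where 33.6% of all genes did not overlap, while this share ran from 22.3% (without *Nhe6*-knockout replicate 2) to 38.3% (without wildtype replicate 2), with fewer libraries left to overlap.

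With the longest transcript as length, levels were 157 for *Cltc*, 26.7 for *Ap1g1*, 54.9 for *Ap2s1*, 15.1 for *Gga1*, 34.7 for *Eps15*, 10.4 for *Hip1* and 40.9 for *Dnm2*, and the highest gene became *Ap1s1* in AP-1, *Ap3d1* in AP-3 and *Picalm* among assembly proteins. As TPM, on a scale with another total, they were 506 for *Cltc*, 100.6 for *Ap1g1*, 164 for *Ap2s1*, 145 for *Ap3b1*, 51.0 for *Gga1*, 109 for *Eps15*, 26.5 for *Hip1* and 113 for *Dnm2*. *Fcho1*, with a mean of 17.9 normalized counts, had the widest interval of the 41 coat genes.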
